A study of Mus musculus with 23 samples.

Results

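The 41 genes described here encode actins, non-muscle myosin II and the proteins that bundle, anchor, turn over or border the actin cytoskeleton, with lamin A/C of the nuclear envelope. They were chosen by name from a list of symbols, with earlier results of these data known. All 41 were rows among the 27207 genes of the count table, and 39 passed the filter on low counts. The 23 RNA libraries came from mouse pancreatic ductal adenocarcinoma (PDAC) cells. The KC cells, from 1 tumour line of a Ptf1a Cre/+ mouse, were grown as 2D cultures (n = 6), as branched organoids in floating rat tail collagen type I for 7 days (n = 3) or 13 days (n = 5), and as organoids in growth factor-reduced Matrigel for 13 days (n = 3). A separate batch, batch 2 in the labels, held day 13 collagen organoids labelled KC (n = 3) and of 1 KPC line (n = 3), whose mouse of origin was Pdx1 Cre/+. The titles of the KC organoids of batch 2 do not name the line. The genotypes, KC and KPC in the labels, were compared between 2 lines, each from 1 mouse, so that the genotype and the line cannot be told apart. The 2D cells were lysed directly, whereas the organoids were first freed from the gel with collagenase, so culture form and digestion cannot be told apart either. The organoid libraries of batch 1 are described as separate experiments. For 2D and batch 2 the sources used here give replicate numbers alone, so that there the spread between libraries may be technical.

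Actin filaments assemble from monomers at the cell cortex, in protrusions and in contractile bundles, and non-muscle myosin II pulls on them. Crosslinkers such as alpha-actinin and filamin hold filaments in bundles and nets, focal adhesion proteins couple them to integrins and so to the matrix, and the ERM proteins ezrin, radixin and moesin tie them to the plasma membrane. In gland-forming epithelia the same machinery serves crawling and pulling on collagen, and later the apical microvilli that line a lumen. Many of these genes are known targets of serum response factor (SRF), whose binding motif is called the CArG box.

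Depth lay between 1221451 and 2471058 counted molecules per library (median 1845921), and 3 molecules, the floor used here, corresponded to at most 3.22 CPM, counts scaled to the library total. Levels are given in CPM scaled by the trimmed mean of M values (TMM), and since the libraries tag the 3′ end of each molecule without length correction, a level is compared between groups and never between genes. A gene was called higher or lower at a Benjamini-Hochberg adjusted p under 0.1 over all 11144 genes tested (edgeR), and in parentheses a value with ± and an adjusted p is a log2 fold change with its standard error, the later or first-named group minus the other. The 6 epithelial marker genes, among them the keratins of ductal cells, were counted in every library (summed level 7016 to 13882 CPM). Smooth muscle cells and pericytes use related actomyosin genes, and 6 of their 8 counted markers had no more than 3 molecules in any library, with Lmod1 and Myocd at 0 and Myh11 at no more than 1. The summed level of these 8 markers was 32.0 to 34.3 CPM at day 7, mostly from Smtn, and 5.96 to 26.6 CPM in the other groups, so it moved with the members, and its part in the results was not tested. All 5 endothelial markers and 3 of 4 immune markers stayed at or under 3 molecules per library. The 9 fibroblast markers summed to 61.9 to 188 CPM in 2D, 54.6 to 88.7 at day 7 and 32.7 to 102 in the other groups. The part of this sum in the results was not tested. The immune sum moved with time and matrix and came mostly from Cd68 (3.41 to 5.88 CPM at day 7, 12.1 to 22.1 at day 13, 30.7 to 36.6 in Matrigel), and its part was not tested either. The 2D libraries fell into replicates 1 to 3 and 4 to 6, with TMM factors of 0.74 to 0.77 and 1.04 to 1.06. Their deviations from the group mean correlated at -0.66 to -0.55 between the sets, values that the shared mean makes negative in part. The calls against 2D that were lost with 1 of these sets alone are named beside the counts. Fewer cells of a kind and less RNA per cell cannot be told apart in such bulk libraries.

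Taken as a mean, the members stood highest in day 7 collagen organoids. The mean z score of log2 CPM over the 39 genes was -0.27 ± 0.09 (SD, n = 6) in 2D, 0.87 ± 0.04 (n = 3) at day 7 and -0.31 ± 0.06 (n = 5) at day 13 in collagen. It was -0.19 ± 0.03 (n = 3) in Matrigel, 0.10 ± 0.02 (n = 3) in the KC organoids of batch 2 and 0.30 ± 0.04 (n = 3) in the KPC organoids. The lowest day 7 library scored 0.84 and the highest library of any other group 0.35. As a share of all counted molecules the 41 genes made up 1.11% to 1.84% in the 2D libraries, 2.78% to 2.90% at day 7, 1.79% to 1.89% at day 13 in collagen, 1.80% to 1.88% in Matrigel and 2.03% to 2.17% in batch 2. Among the 4 KC conditions of batch 1, 27 of the 39 genes had their highest mean at day 7, against 33.0% of all genes tested. Across these 4 conditions 36 of the 39 genes differed, against 75.6% of all genes tested, and the 3 that missed the threshold were Acta2, Arpc3 and Myh10. Over all 6 groups 19 of the 39 genes had their highest mean at day 7. Of the others 7 had it in KC and 8 in KPC organoids of batch 2, and 5 in 2D. The share of all genes was not computed for this count.

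**Figure D1:**
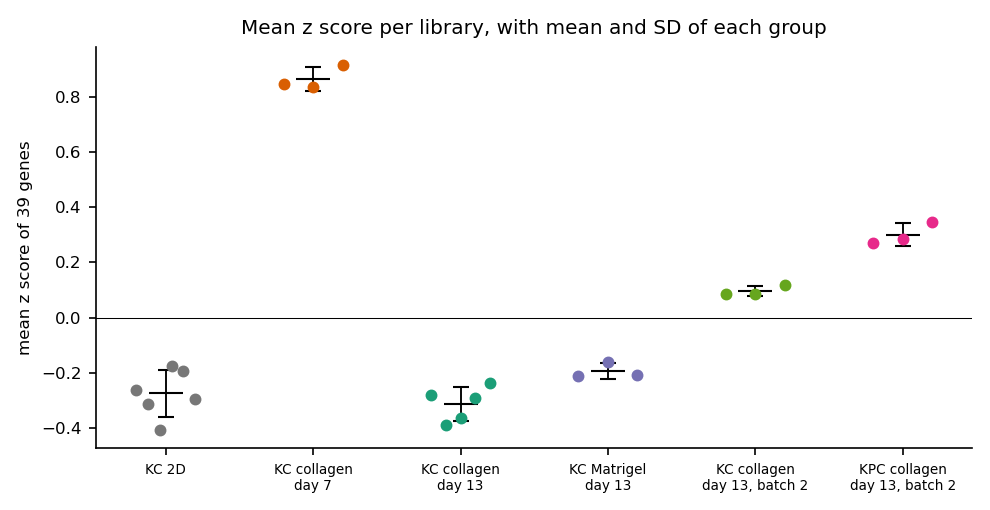
Mean z score of log2 CPM over the 39 tested genes (vertical axis, in SD units) for each of the 23 libraries (points) by group (horizontal axis), with the mean and SD of each group in black. The 3 day 7 collagen libraries lie between 0.84 and 0.91, and the other libraries between -0.41 and 0.35.

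Genes differed in how closely they followed this course. Over the 23 libraries, which share groups and batches, the level of Actb correlated at r = 0.92 with the mean z score of the other genes, that of Lmna at 0.87, Tpm3 and Tpm1 at 0.84 and Cfl1 at 0.80. The opposite end held Csrp1 (r = -0.56), Vil1 (-0.52), Arpc5 (-0.45), Myl6 (-0.33) and Acta2 (-0.31). Csrp1 is a LIM protein of actin bundles, Arpc5 a subunit of the Arp2/3 complex and Vil1 the microvillar bundling protein villin. These values describe the libraries and carry no test.

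**Figure D2:**
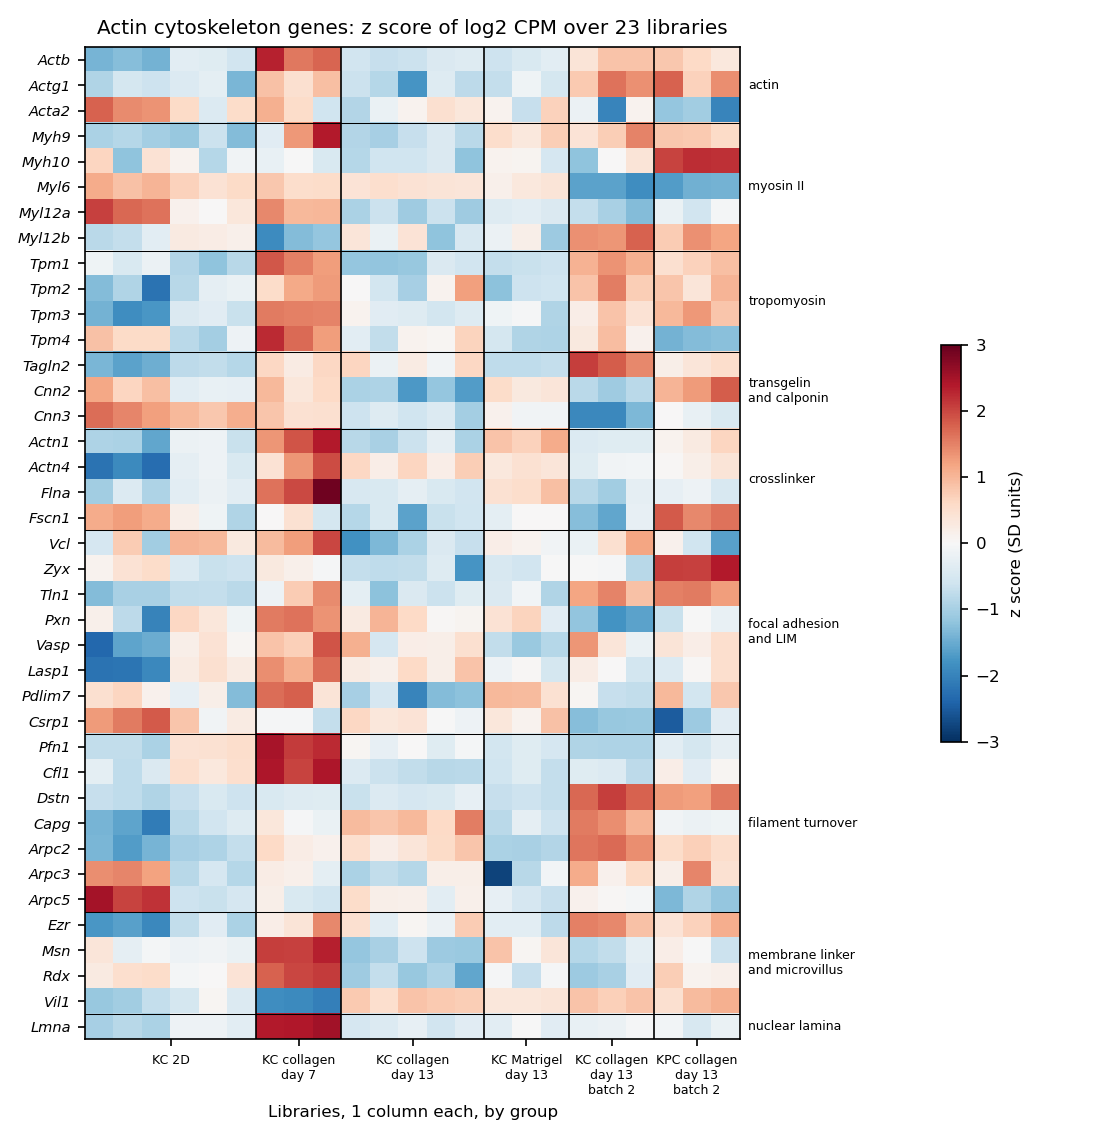
Heat map of the z score of log2 CPM (colour, in SD units over the 23 libraries) for the 39 tested genes (rows, grouped by role) in every library (columns, by group). The day 7 columns are red for most genes and clearly blue for Vil1 and Myl12b. The Myl6 row turns blue and the Dstn row red in both groups of batch 2. The first 3 of the 2D columns differ from the other 3 in rows such as Arpc5 and Lasp1.

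From 2D to day 7 in collagen, 26 of the 39 genes rose and 5 fell, against 24.8% of all tested genes that rose and 26.4% that fell, and the median log2 fold change was 0.43 against -0.02 for all genes. From day 7 to day 13, 3 genes rose and 23 fell, against 27.1% and 28.1% of all tested genes, with a median of -0.57 against -0.01. With the 8 KC collagen libraries of both batches 4 rose and 23 fell, against 28.1% and 27.4% of all tested genes. Of the 26 calls 23 were kept there. Day 13 against 2D gave 10 genes higher and 14 lower, against 23.3% and 26.3% of all tested genes, with a median of -0.01 for the members as for all genes. The 3 comparisons share libraries, so their values are given side by side and are not independent of one another. The splits against 2D depended on the scaling, since library size without TMM gave 29 higher and 2 lower at day 7. The falls of Csrp1, Arpc5 and Myl12b then lost their call. At day 13 the same scaling gave 16 higher and 7 lower. At day 7 the calls of Vcl, Vasp, Csrp1, Dstn and Capg were lost with 2D replicates 4 to 6 alone, and Arpc5 changed sign (0.06 on the log2 scale). The call of Pdlim7 was lost with replicates 1 to 3 alone. The day 7 split was 25 higher and 10 lower with replicates 1 to 3 alone, against 29.1% and 28.3% of all tested genes. With replicates 4 to 6 alone it was 25 and 3, against 22.4% and 23.9%, so the number of falls depended on the 2D set. At day 13 against 2D, 13 of the 24 calls remained with 2D replicates 4 to 6 alone, and 11 did not.

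**Figure D3:**
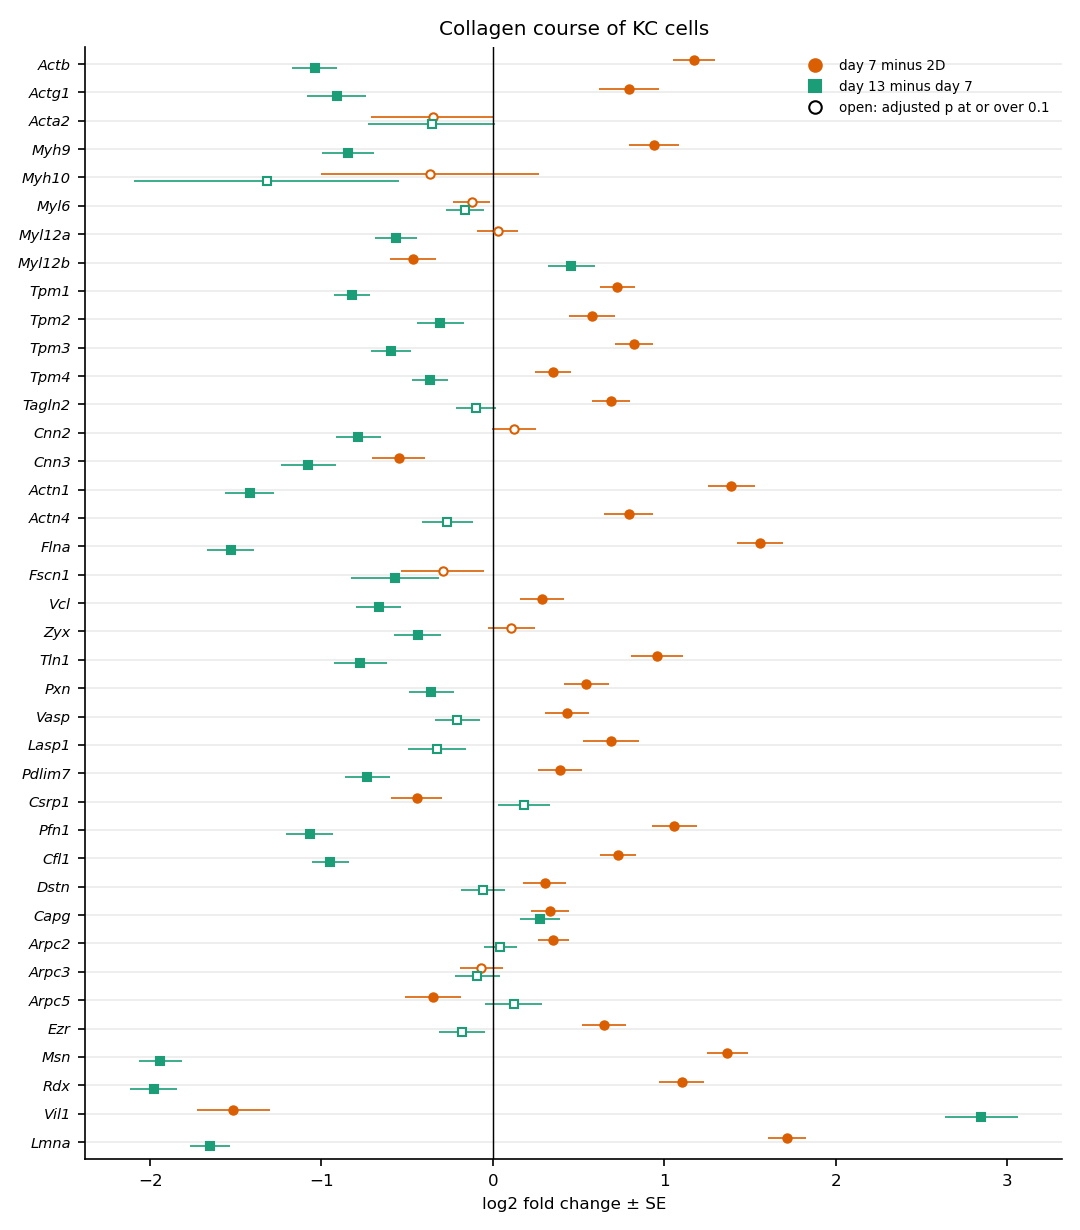
log2 fold change with its SE (horizontal axis) of the 39 tested genes (rows, grouped by role) for day 7 minus 2D (orange circles) and day 13 minus day 7 in collagen (green squares). Filled symbols have an adjusted p under 0.1. For the first comparison 26 filled circles lie to the right of 0 and 5 to the left, and for the second 3 filled squares lie to the right and 23 to the left.

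To show the regulatory sequence that SRF target genes are known for, the promoter windows of the members (250 bases before to 50 bases after the RefSeq start, GRCm38.p6) were searched for the CArG box on both strands. Of the 41 genes 38 had a window, and 6 of these (15.8%) held a CArG box, against 1.81% of the 27025 gene symbols with a window. Actb, Tagln and Pxn had no window and were not searched. Each is shown with 10 bases on either side, 5′ to 3′ on the strand of the gene, with the box in capitals.
Actg1: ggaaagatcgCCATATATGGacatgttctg
Cnn2: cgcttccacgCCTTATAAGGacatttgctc
Myl6: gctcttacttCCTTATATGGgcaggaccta
Myl9: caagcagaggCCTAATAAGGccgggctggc
Vcl: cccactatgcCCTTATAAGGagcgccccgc
Vil1: ccctatcttcCCTTATATGGtgaaggaagt
The printed stretches lie at chr11:120348566-120348595 (minus strand) for Actg1, chr10:79988534-79988563 (plus) for Cnn2, chr10:128493040-128493069 (minus) for Myl6, chr2:156775293-156775322 (plus) for Myl9, chr14:20929161-20929190 (plus) for Vcl and chr1:74409301-74409330 (plus) for Vil1. The boxes begin at -90, -56, -50, -161, -227 and -73 from the start of transcription, in that order. A match describes the letters and is not a measured site. The 6 genes did not share a course: at day 7 Actg1 and Vcl rose (0.79 and 0.29 on the log2 scale), Vil1 fell by 1.51, the log2 fold changes of Cnn2 (0.12) and Myl6 (-0.12) did not pass the threshold, and Myl9 was not tested.

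Beta-actin (Actb), the main cytoplasmic actin, roughly doubled at day 7 and returned. Its level was 3358 to 4670.3 (median 3908) CPM in the 2D libraries, 10117, 8171 and 8593 at day 7, and 4309.9, 4182, 4239.9, 4505 and 4551 at day 13. The day 7 libraries did not overlap with either other group (day 7 minus 2D log2 fold change 1.17 ± 0.12, adjusted p = 5.88e-08; day 13 minus day 7 -1.04 ± 0.13, adjusted p = 3.05e-07), and day 13 against 2D gave 0.13 ± 0.11, adjusted p = 0.343. Gamma-actin (Actg1), the other cytoplasmic actin, had 971 molecules in all 23 libraries together, and how reads that map to several places were counted is not given in the sources used here. Its values may therefore leave out part of its RNA. It stood at 12.4 to 19.2 (median 17.1) CPM in 2D, 30.4, 26 and 30.7 at day 7 and 16.7, 15.3, 10.5, 18.4 and 15.8 at day 13. It took the same course in batch 1, with a rise of 0.79 on the log2 scale (adjusted p = 6.84e-04) and then a fall (log2 fold change -0.91 ± 0.17, adjusted p = 1.05e-04). The KC day 13 collagen organoids of batch 2 read 29.1 to 40.4 CPM, so the fall rests on batch 1. Smooth muscle alpha-actin (Acta2), the actin of myofibroblasts and vessels, was counted at low levels of 6.24 to 22.6 (median 14.6) CPM in 2D, 15.2, 11.2 and 5.54 at day 7 and 4.64, 7.19, 8.61, 10.7 and 9.98 at day 13. Its groups overlapped throughout, and it passed the threshold only for day 13 against 2D (-0.71 ± 0.33, adjusted p = 0.0819), a call that was lost with library size scaling and with 2D replicates 4 to 6 alone.

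Of the 6 myosin II genes, 1 followed the actins from 2D to day 7, and the light chains did not. At this step 1 of the 5 tested rose and 1 fell, against 24.8% and 26.4% of all tested genes. Myh9, the heavy chain of non-muscle myosin IIA, had levels of 163 to 197 (median 178) CPM in 2D, 214, 344 and 469 at day 7 and 184, 178, 195, 209 and 188 at day 13. Each day 7 library lay above all 11 others of the course, although they spread widely, and both steps passed the threshold (log2 fold changes 0.94 ± 0.15, adjusted p = 1.65e-05, and -0.85 ± 0.15, adjusted p = 5.11e-05). The KC day 13 collagen organoids of batch 2 read 268 to 363 CPM and overlapped with day 7. Myh10, the heavy chain of non-muscle myosin IIB, was close to the floor in all KC libraries, with no more than 8 molecules in any of them. At day 13 in collagen the counts were 1, 2, 2, 3 and 0, all at or under the floor, and in the 2D libraries they ran from 0 to 7, so that the groups overlapped and no fold is given. The model called day 13 lower than 2D (adjusted p = 0.0498), a call lost with 2D replicates 4 to 6 alone and with the 8 KC collagen libraries of both batches.

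Myl6, an essential light chain, did not pass the threshold at either step, at 390.3 to 559.5 (median 468) CPM in 2D, 477, 410.3 and 411 at day 7 and 385, 405, 387, 381 and 372 at day 13 (log2 fold changes -0.12 ± 0.11, adjusted p = 0.374, and -0.16 ± 0.11, adjusted p = 0.235). Day 13 was nevertheless called lower than 2D (-0.29 ± 0.09, adjusted p = 0.016). Its 3′ end is shared by 4 pseudogenes, whose counts came to 2.85% of its own, so reads may be split among them. The regulatory light chain genes Myl12a and Myl12b are nearly identical over their last 300 bases, and reads could be assigned to the wrong one. Myl12a read 702 to 1047 (median 856) CPM in 2D, 929, 846 and 851 at day 7 and 582, 618, 568, 617 and 569.5 at day 13, a fall after day 7 (-0.57 ± 0.12, adjusted p = 4.13e-04). Myl12b read 129.9 to 171 (median 156) CPM in 2D, 99, 115 and 119 at day 7 and 175, 152, 177, 118 and 141 at day 13, so that it fell (-0.47 ± 0.13, adjusted p = 0.00686) and rose again (0.46 ± 0.14, adjusted p = 0.0073), opposite in sign to Actb and Myh9, and the fall lost its call with library size scaling. Myl9, the regulatory light chain typical of smooth muscle, had 5 molecules in all 23 libraries together and was not tested.

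Tropomyosins lie along actin filaments and set which proteins can bind them, and in batch 1 all 4 genes rose at day 7 and fell by day 13. Of all tested genes 24.8% rose at the first of these steps and 28.1% fell at the second. For Tpm1 the level was 543 to 701 (median 622) CPM in 2D, 1115, 1029.7 and 967 at day 7 and 548, 545, 554, 652 and 632 at day 13, the groups of day 7 and day 13 not overlapping. Across the 4 genes the rise ran from 0.35 (Tpm4) to 0.82 (Tpm3, adjusted p = 2.43e-06) on the log2 scale. The later log2 fold changes ran from -0.82 (Tpm1) to -0.31 (Tpm2, adjusted p = 0.0654). The Tpm2 fall was lost under 4 alternative settings, among them library size scaling, and Tpm3 shares its 3′ end with Tpm3-rs7, whose counts came to 1.35% of its own. In KC day 13 organoids of batch 2 the means of Tpm1, Tpm2, Tpm3 and Tpm4 were 945, 148, 457 and 532 CPM. At day 7 they were 1037, 146, 574 and 639 CPM, so the size of the fall depended on the batch.

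Transgelin and calponin genes encode small actin-binding proteins named after smooth muscle. Tagln itself had 7 molecules in all 23 libraries together and was not tested. Tagln2, the form of non-muscle cells, rose at day 7 (0.69 ± 0.11, adjusted p = 2.94e-05) and was still above 2D at day 13 (0.59 ± 0.10, adjusted p = 4.03e-05). Cnn3, acidic calponin, fell at both steps, with levels of 134 to 229.8 (median 167) CPM in 2D, 137, 108 and 110.0 at day 7 and 54.7, 63.3, 56, 62.7 and 42.6 at day 13. The day 7 range overlapped with that of 2D by its highest library, whereas every day 13 library lay below all others (day 7 minus 2D -0.55 ± 0.15, adjusted p = 0.00591; day 13 minus day 7 -1.08 ± 0.16, adjusted p = 4.06e-06). Cnn2 did not pass the threshold at day 7 (0.12 ± 0.13, adjusted p = 0.467) and then fell (-0.78 ± 0.13, adjusted p = 2.33e-05).

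The crosslinkers alpha-actinin 1 and filamin A were among the members with the largest changes. Actn1, which bundles filaments in stress fibres and at adhesions, had levels of 90.7 to 155 (median 122) CPM in 2D, 269.7, 333 and 401 at day 7 and 119.6, 114, 129, 148 and 115 at day 13. Flna, which joins filaments at wide angles and links them to integrins, had levels of 129 to 182 (median 168) CPM in 2D, 371, 425 and 615 at day 7 and 161, 162, 175, 162 and 155 at day 13. Neither gene's day 7 libraries overlapped with the other groups. Actn1 rose 2.63-fold (log2 fold change 1.39 ± 0.14, adjusted p = 2.06e-08) and fell 2.67-fold (-1.42 ± 0.14, adjusted p = 9.55e-09). Flna rose 2.94-fold (1.56 ± 0.13, adjusted p = 2.29e-09) and fell 2.89-fold (-1.53 ± 0.14, adjusted p = 1.79e-09), and both ended within the range of 2D (Actn1 -0.03 ± 0.13, adjusted p = 0.891; Flna 0.03 ± 0.12, adjusted p = 0.876). Actn4, the second non-muscle alpha-actinin, rose (0.79 ± 0.14, adjusted p = 8.44e-05) without a called fall (-0.26 ± 0.15, adjusted p = 0.144). Fascin (Fscn1), which bundles filaments in filopodia, was low, at 13.5 to 37.8 (median 29.1) CPM in 2D, 21.1, 26 and 16.2 at day 7 and 13.9, 16.8, 9.57, 15.2 and 15.8 at day 13. Its groups overlapped at both steps, the fall after day 7 (-0.57 ± 0.26, adjusted p = 0.0688) was lost with DESeq2 and at an adjusted p of 0.05, and day 13 lay below 2D (-0.86 ± 0.23, adjusted p = 0.00346), a call lost with 2D replicates 4 to 6 alone.

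Of the 8 genes of focal adhesions and LIM domain proteins, 6 rose at day 7 and 1 fell, against 24.8% and 26.4% of all tested genes. From day 7 to day 13, 5 of them fell, against 28.1% of all tested genes. Talin 1 (Tln1), which activates integrins and ties them to actin, changed most, with levels of 48.3 to 61.5 (median 57.4) CPM in 2D, 77.5, 111 and 145 at day 7 and 72.8, 49.9, 68.9, 63.1 and 70.9 at day 13. All 3 day 7 libraries lay above those of the other groups of the course (day 7 minus 2D 0.96 ± 0.15, adjusted p = 1.87e-05, and day 13 minus day 7 -0.77 ± 0.15, adjusted p = 1.63e-04). The KC day 13 collagen organoids of batch 2 read 117 to 149 CPM, so the fall of Tln1 rests on batch 1. Csrp1 was the gene that fell at day 7 (-0.44 ± 0.15, adjusted p = 0.0187), a call lost with library size scaling and with 2D replicates 4 to 6 alone. Paxillin (Pxn), vinculin (Vcl), Vasp, Lasp1 and Pdlim7 rose by 0.29 (Vcl) to 0.69 (Lasp1) on the log2 scale, and the Vcl rise was lost under 5 alternative settings. Zyxin (Zyx), a sensor of tension in stress fibres, read 70.6 to 104 (median 83.5) CPM in 2D, 95.6, 91 and 86.1 at day 7 and 69.5, 68.6, 69.4, 77 and 49.9 at day 13. It did not pass the threshold at day 7 (0.11 ± 0.14, adjusted p = 0.544) and then fell (-0.44 ± 0.14, adjusted p = 0.0105). Between day 7 and day 13 the called log2 fold changes of the group ran from -0.77 (Tln1) to -0.36 (Pxn).

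The 7 genes of filament turnover split. Profilin 1 (Pfn1), which feeds actin monomers to growing ends, and cofilin 1 (Cfl1), which severs old filaments, followed Actb. Pfn1 had levels of 1096 to 1733 (median 1429) CPM in 2D, 3160.2, 2825 and 2930.3 at day 7 and 1499, 1360.4, 1472, 1308 and 1441 at day 13. Its day 7 libraries were clear of the other groups (day 7 minus 2D 1.06 ± 0.13, adjusted p = 7.23e-07; day 13 minus day 7 -1.07 ± 0.14, adjusted p = 4.71e-07), and Cfl1 gave 0.73 ± 0.10, adjusted p = 4.30e-06, and -0.95 ± 0.11, adjusted p = 6.51e-08. The Arp2/3 subunits, which nucleate branched networks, did not share that course. Arpc2 rose at day 7 (0.35 ± 0.09, adjusted p = 0.00301) and did not change detectably afterwards (0.04 ± 0.10, adjusted p = 0.729), Arpc3 passed no threshold, and Arpc5 was called lower at day 7 (-0.35 ± 0.16, adjusted p = 0.0832). That fall of Arpc5 rested on 2D replicates 1 to 3, since with replicates 4 to 6 alone the log2 fold change was 0.06 (adjusted p = 0.597). Capg, which caps barbed ends and resembles gelsolin, rose at both steps (0.33 ± 0.11, adjusted p = 0.0158, then 0.28 ± 0.11, adjusted p = 0.0494), the later call being lost with library size scaling. Destrin (Dstn), a cofilin relative, read 113 to 161 (median 135) CPM in 2D, 160.3, 169 and 173 at day 7 and 137, 167, 154, 160.3 and 188 at day 13, a rise at day 7 (0.30 ± 0.12, adjusted p = 0.0507) that was lost under 3 alternative settings.

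Within the ERM family the genes parted. Moesin (Msn) had levels of 112 to 147 (median 119) CPM in 2D, 304, 301 and 341 at day 7 and 76, 83, 96.2, 78.4 and 77.8 at day 13. Radixin (Rdx) had levels of 47.9 to 63.1 (median 57.7) CPM in 2D, 109.8, 122 and 127 at day 7 and 30.1, 35.5, 29.2, 32.2 and 24.2 at day 13. For both genes the 3 groups did not overlap, day 7 being highest and day 13 lowest. Msn rose 2.58-fold (1.37 ± 0.12, adjusted p = 3.88e-09) and then fell 3.83-fold (-1.94 ± 0.13, adjusted p = 7.59e-12), to below 2D (-0.57 ± 0.11, adjusted p = 2.82e-04). Rdx rose 2.15-fold (1.10 ± 0.13, adjusted p = 4.00e-07) and fell 3.94-fold (-1.98 ± 0.14, adjusted p = 2.25e-11), also to below 2D (-0.88 ± 0.13, adjusted p = 8.71e-06). Ezrin (Ezr), the ERM protein of epithelial microvilli, rose at day 7 (0.65 ± 0.13, adjusted p = 2.53e-04) and its later log2 fold change did not pass the threshold (-0.18 ± 0.13, adjusted p = 0.274), which left it above 2D at day 13 (0.47 ± 0.11, adjusted p = 0.00163).

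Villin (Vil1), which bundles actin in brush border microvilli, fell at day 7 and rose by day 13, as Myl12b did with smaller values. Its level was 34.4 to 83.1 (median 51.1) CPM in 2D, 20.1, 19.4 and 17.5 at day 7 and 142, 115, 149, 142 and 138 at day 13. The 3 groups did not overlap. Vil1 fell by 1.51 on the log2 scale at day 7 (adjusted p = 3.79e-06), and rose 7.21-fold from day 7 to day 13 (log2 fold change 2.85 ± 0.21, adjusted p = 5.88e-11), which was the largest rise among the members in that comparison. At day 13 it exceeded 2D (log2 fold change 1.34 ± 0.15, adjusted p = 2.01e-07).

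Lamin A/C (Lmna) is the filament protein of the nuclear envelope whose amount is known to follow tissue stiffness, and it had the largest rise of the members at day 7. Its level was 417 to 588 (median 498) CPM in 2D, 1616, 1635 and 1711 at day 7 and 509, 528, 562, 495 and 544 at day 13. The day 7 libraries stood 3.29-fold above 2D (log2 fold change 1.72 ± 0.11, adjusted p = 2.90e-11) and 3.13-fold above day 13 (day 13 minus day 7 -1.65 ± 0.12, adjusted p = 2.92e-11), with no overlap, and day 13 was back among the 2D values (0.07 ± 0.10, adjusted p = 0.612).

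Against 2D, the 39 members at day 13 were called in shares near those of all genes, 25.6% higher against 23.3% and 35.9% lower against 26.3%. With the 8 KC collagen libraries of both batches the split was 14 higher and 12 lower. The 10 genes higher at day 13 were Vil1, Ezr, Tagln2, Capg, Arpc2, Actn4, Lasp1, Dstn, Tpm2 and Tpm3. Their log2 fold changes ran from 0.23 (Tpm3) to 1.34 (Vil1). The 14 genes lower at day 13 were Cnn3, Rdx, Fscn1, Acta2, Cnn2, Msn, Myl12a, Vcl, Pdlim7, Zyx, Myl6, Csrp1, Cfl1 and Myh10, of which, Myh10 aside, Cnn3 had the largest fall (-1.63 ± 0.14, adjusted p = 1.76e-09). With 2D replicates 4 to 6 alone, Tpm2, Tpm3, Lasp1 and Dstn were no longer called higher, and Acta2, Myh10, Myl6, Fscn1, Zyx, Pdlim7 and Csrp1 no longer lower. Vcl and Cfl1 lost their call with replicates 1 to 3 alone. The call of Csrp1 (-0.26 ± 0.13, adjusted p = 0.0987) was lost when any of 9 of the 11 libraries was left out, and Acta2 lost its call without any of 6 libraries, among them 2D replicates 1, 2 and 3.

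**Figure D4:**
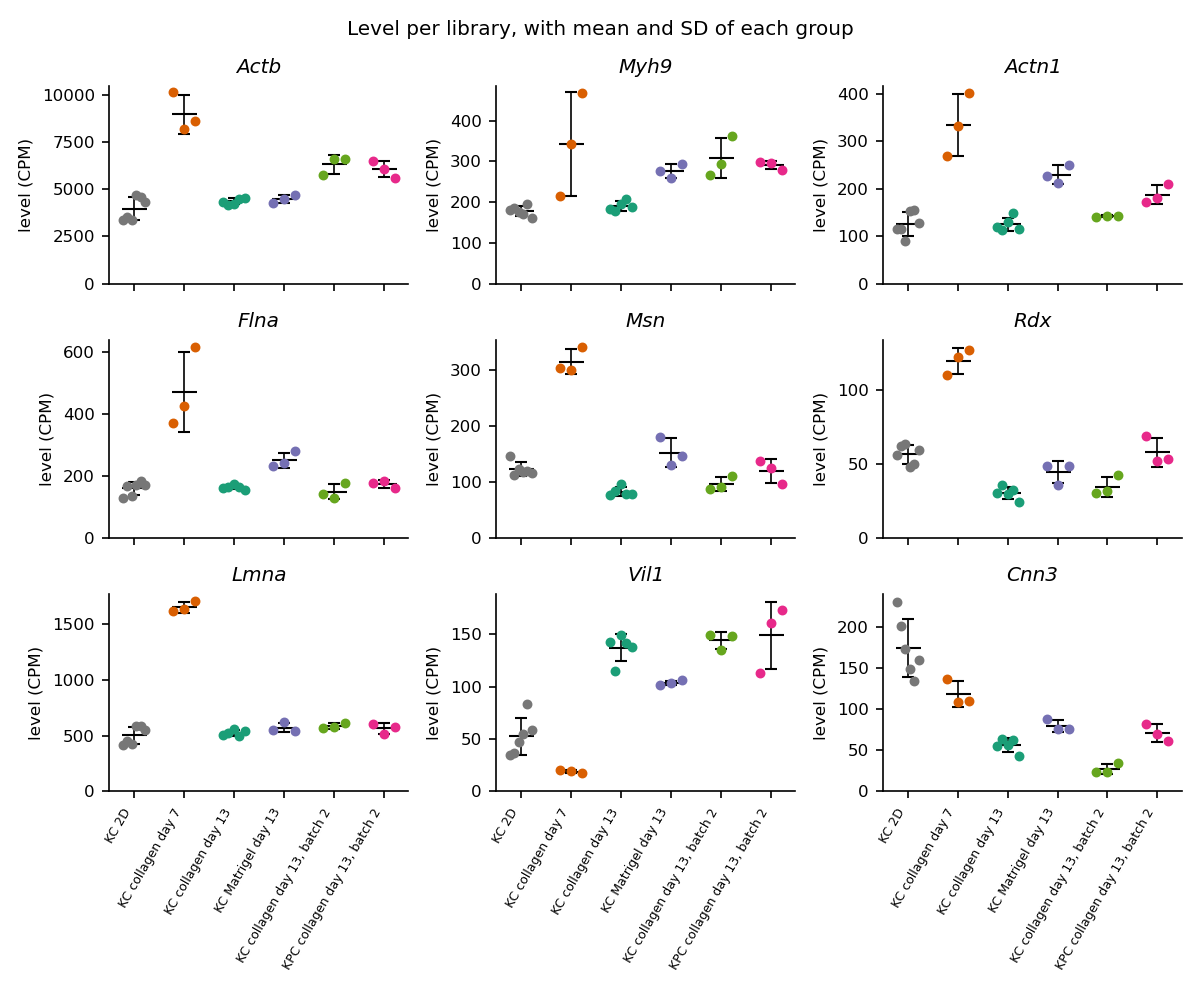
Level in CPM (vertical axes, from 0) of 9 genes in each of the 23 libraries (points) by group (horizontal axes), with the mean and SD of each group in black. Actb, Myh9, Actn1, Flna, Msn, Rdx and Lmna are highest in the 3 day 7 libraries or reach their highest library there, Vil1 is lowest there, and Cnn3 is highest in 2D.

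Matrix was compared at day 13 in batch 1, with Matrigel, a basement membrane extract, set against fibrillar collagen. In Matrigel 8 genes were higher and 3 lower than in collagen, against 6.62% and 6.29% of all tested genes, with a median log2 fold change of 0.04. The 8 genes were Msn, Actn1, Cnn2, Flna, Pdlim7, Rdx, Myh9 and Cnn3, and the 3 were Capg, Tagln2 and Arpc2. With library size scaling the 8 higher genes were called as before and none of the 3 lower ones was. For Msn the Matrigel levels were 181, 129 and 147 CPM, all above the 5 collagen libraries given above (log2 fold change 0.89 ± 0.13, adjusted p = 3.50e-05). Actn1 read 227, 212 and 251 CPM in Matrigel (log2 fold change 0.88 ± 0.14, adjusted p = 1.63e-04), 1.84-fold above collagen and without overlap. These were the members with the clearest matrix difference.

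Flna in Matrigel read 232, 240.2 and 279 CPM (0.62 ± 0.14, adjusted p = 0.00482), Rdx 48.4, 35.7 and 48.4 CPM (0.54 ± 0.15, adjusted p = 0.0225) and Myh9 276, 260.3 and 294 CPM (0.54 ± 0.15, adjusted p = 0.0252). None of the 3 overlapped with collagen. The call of Rdx was lost without Matrigel replicate 1 or 3 and that of Myh9 without Matrigel replicate 3, and Myh9 was also no longer called when the 3 KC collagen libraries of batch 2 joined the 5 of batch 1. Cnn3 read 87.7, 75.4 and 75.8 CPM (0.51 ± 0.16, adjusted p = 0.0503) and lost its call without Matrigel replicate 1 or 2 or collagen replicate 1 or 5. No actin was called between the matrices, and Actb read 4269, 4481 and 4670.1 CPM (0.04 ± 0.13, adjusted p = 0.917), Actg1 16.1, 20.5 and 17.5 CPM (0.23 ± 0.19, adjusted p = 0.546) and Acta2 8.66, 5.23 and 12.2 CPM (0.05 ± 0.39, adjusted p = 0.97). Neither was a light chain called, with Myl6 at 336, 365 and 379 CPM (-0.10 ± 0.11, adjusted p = 0.696), Myl12a at 650.0, 658 and 645 CPM (0.14 ± 0.12, adjusted p = 0.592) and Myl12b at 153, 167 and 121 CPM (-0.05 ± 0.13, adjusted p = 0.891). No tropomyosin passed the threshold, with log2 fold changes between -0.26 (Tpm2) and 0.07 (Tpm1). Vil1 at 102, 103 and 106 CPM lay below every collagen library without passing the threshold (-0.40 ± 0.17, adjusted p = 0.168), and Lmna at 548, 620.4 and 546 CPM was not separated (0.12 ± 0.12, adjusted p = 0.666). Myh10 had 8, 7 and 2 molecules in Matrigel and was not called (adjusted p = 0.183). The lower genes were Capg (-0.45 ± 0.12, adjusted p = 0.0123), Tagln2 (-0.43 ± 0.12, adjusted p = 0.022) and Arpc2 (-0.34 ± 0.10, adjusted p = 0.0231), none of which overlapped with collagen. The remaining members given per library were Fscn1 at 18.1, 20.9 and 21 CPM, Zyx at 75.1, 72.8 and 86.8, Tln1 at 68.9, 79.3 and 57.1, Pfn1 at 1237, 1314 and 1256 and Dstn at 135, 142 and 133, with log2 fold changes between -0.24 (Dstn) and 0.48 (Fscn1), none called.

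The KPC line was compared with the KC line in batch 2, at day 13 in collagen. In KPC organoids 6 genes were higher and 4 lower, against 9.58% and 10.4% of all tested genes, with a median log2 fold change of 0.05. The 6 were Myh10, Fscn1, Cnn3, Zyx, Cnn2 and Rdx, and each of them stayed called under the 9 alternative settings tried and with each of the 6 libraries left out. The 4 lower genes were Tagln2, Dstn, Capg and Tpm4. Fitting these 6 libraries alone called 18 genes (11 higher and 7 lower), setting KPC against the 8 KC collagen libraries of both batches called 16 (12 higher and 4 lower), and library size scaling called 7 higher and 1 lower.

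Myh10 set the lines apart most. KPC libraries held 48, 62 and 69 molecules (30.7, 37.1 and 36.4 CPM) and KC libraries of the same batch 0, 4 and 7 (0, 2.79 and 4.66 CPM), a log2 fold change of 3.78 ± 0.52, adjusted p = 1.05e-05. Since all KC counts are small, the fold of 13.7 depends on few molecules. Myh9, its partner among the heavy chains, did not pass the threshold, at 298, 296 and 279.8 CPM in KPC and 268, 294 and 363 in KC (-0.08 ± 0.17, adjusted p = 0.826). Fscn1 read 49.8, 41.3 and 44.9 CPM in KPC against 11.3, 9.76 and 18.7 in KC (1.77 ± 0.30, adjusted p = 1.29e-04). Fascin is the filopodial bundler described above, and zyxin and calponin 3 bind stress fibres. Zyx read 166, 165 and 182 CPM against 86.7, 86.5 and 67.3 (1.09 ± 0.16, adjusted p = 2.04e-05), and Cnn3 81.8, 70 and 60.7 CPM against 23.8, 23.7 and 34.7 (1.36 ± 0.21, adjusted p = 5.38e-05). For Fscn1, Zyx and Cnn3 the KPC libraries lay clear above those of KC. Rdx read 69, 51.5 and 52.8 CPM against 29.8, 31.4 and 42 (0.74 ± 0.18, adjusted p = 0.00437), and Cnn2 gave 0.93 ± 0.15, adjusted p = 9.93e-05. Cnn3 was itself lower in the KC organoids of batch 2 than in those of batch 1 (-1.03 ± 0.20, adjusted p = 2.61e-04).

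Of the lower genes, Dstn read 599, 575 and 759 CPM in KPC against 839, 1109 and 872 in KC (-0.54 ± 0.14, adjusted p = 0.00768), but against the KC libraries of both batches its direction turned (log2 fold change 0.51, adjusted p = 0.492). Tagln2 (-0.62 ± 0.13, adjusted p = 0.00188) was no longer called against the KC libraries of both batches, and Capg (-0.43 ± 0.13, adjusted p = 0.0232) and Tpm4 (-0.37 ± 0.12, adjusted p = 0.0401) were not called with library size scaling. The actins showed no called difference, with Actb at 6482, 6086 and 5617 CPM in KPC and 5733, 6596 and 6591 in KC (-0.06 ± 0.15, adjusted p = 0.86). Actg1 read 42.8, 28.1 and 37 CPM against 29.1, 40.4 and 36.7 (0.02 ± 0.19, adjusted p = 0.961), and Acta2 3.83, 4.19 and 2.11 CPM against 7.28, 2.09 and 8.66 (-0.85 ± 0.61, adjusted p = 0.406). These actin levels overlapped between the lines. Light chains were not called either, since Myl6 read 127, 144 and 145 CPM against 132, 131 and 115, Myl12a 672, 625 and 693 against 608, 580.1 and 542, and Myl12b 193, 225 and 215 against 226, 223 and 249.9, with adjusted p of 0.562, 0.387 and 0.603. Actn1 (171, 181 and 210.1 CPM against 140.4, 144 and 143) lay above KC in all 3 libraries and missed the threshold (0.40 ± 0.17, adjusted p = 0.113). For Flna (176, 183 and 159.9 against 139.7, 128 and 175 CPM), Tln1 (151, 154 and 136 against 132, 149 and 117), Pfn1 (1333, 1250.3 and 1355 against 1109.8, 1104 and 1104) and Msn (137, 126 and 95.5 against 86.7, 91.3 and 111) the log2 fold changes were between 0.15 (Tln1) and 0.31 (Msn), and none was called. Vil1 (113, 161 and 173 against 149.7, 135 and 149 CPM) and Lmna (603, 514 and 578 against 569, 581 and 616 CPM) differed by 0.05 and -0.06 on the log2 scale, with overlapping libraries and adjusted p of 0.918 and 0.836.

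KC organoids in collagen at day 13 were present in both batches, which gives the size of differences between batches at the same labelled genotype, matrix and day. In batch 2, 13 members were higher and 5 lower than in batch 1, against 19.3% and 18.1% of all tested genes, with a median log2 fold change of 0.18. Library size scaling gave 7 higher and 5 lower. Dstn differed most, 5.83-fold higher in batch 2 (2.54 ± 0.12, adjusted p = 1.40e-13), followed by Myl6, which was 3.06-fold lower (-1.61 ± 0.12, adjusted p = 8.15e-10). Actg1 (1.20 ± 0.18, adjusted p = 1.54e-05) and Tln1 (1.02 ± 0.15, adjusted p = 1.74e-05) were higher by more than 2-fold, and Cnn3 was lower, as given above. Actb (0.53 ± 0.13, adjusted p = 0.00273), Myh9 (0.69 ± 0.15, adjusted p = 0.0012) and Tpm1 (0.69 ± 0.11, adjusted p = 2.09e-05) were higher in batch 2 as well. Msn (0.23), Rdx (0.18), Actn1 (0.18), Flna (-0.14), Vil1 (0.08) and Lmna (0.16) did not pass the threshold, with adjusted p between 0.216 (Msn) and 0.786 (Vil1).

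**Figure D5:**
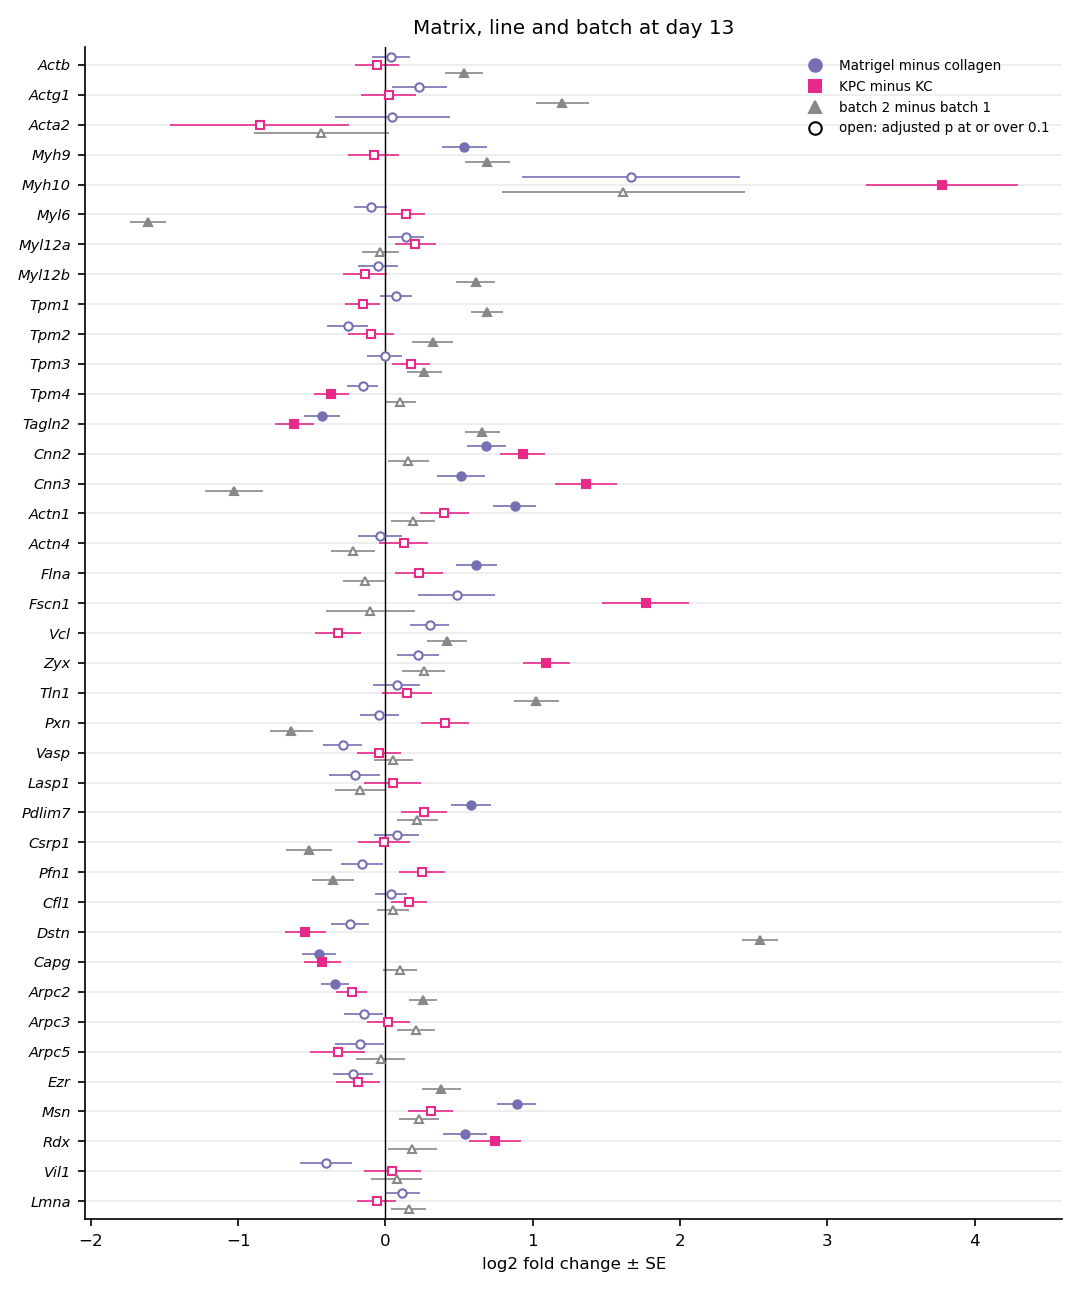
log2 fold change with its SE (horizontal axis) of the 39 tested genes (rows, grouped by role) at day 13 for Matrigel minus collagen (purple circles), KPC minus KC in batch 2 (pink squares) and KC batch 2 minus KC batch 1 in collagen (grey triangles). Filled symbols have an adjusted p under 0.1. Dstn at 2.54 and Myl6 at -1.61 mark the batch difference, and Myh10 at 3.78 the difference between the lines.

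Genes around the same machinery, from 6 lists of pathway partners that share no gene with the members, were counted alike, a few genes standing in 2 lists. From 2D to day 7, 17 of 27 tested genes of myosin regulation were higher and 3 lower, 16 and 3 of 29 for nucleation, capping and turnover, and 12 and 5 of 28 for adhesion partners. SRF, its cofactors and muscle-type genes gave 3 and 1 of 11, apical and brush border genes 6 and 6 of 17, and lamina and LINC complex genes 7 and 0 of 12. Over all tested genes 24.8% were higher and 26.4% lower, and the SRF list at 27.3% higher was close to that share. From day 7 to day 13 the same lists gave 5 and 9, 1 and 12, 5 and 12, 3 and 4, 12 and 3, and 0 and 7, in that order, against 27.1% and 28.1% of all tested genes. The lists of myosin regulation (18.5% and 33.3%) and SRF (27.3% and 36.4%) lay near these shares. Of these 6 lists, apical and brush border genes had the highest median at this step, 1.10 on the log2 scale.

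Named by their place at the ends of each list, Mprip, which ties myosin phosphatase to actin, was the gene of myosin regulation with the largest rise at day 7 (323 ± 53.1 against 95.2 ± 21.3 CPM, log2 fold change 1.74). Anillin (Anln), of the contractile ring, had the largest fall of its list after day 7 (21.6 ± 3.02 against 82.6 ± 21.4 CPM, log2 fold change -1.93), and lamin B1 (Lmnb1) that of the lamina list (27.6 ± 5.81 against 110.2 ± 10.4 CPM, log2 fold change -1.99). In the other direction, Myh14, the third non-muscle myosin II heavy chain, fell at day 7 (-0.83) and rose by day 13 (74.6 ± 21.2 against 9.81 ± 2.0 CPM, log2 fold change 2.91). Gelsolin (Gsn) did likewise (-0.71, then 281 ± 24.8 against 113 ± 3.15 CPM, log2 fold change 1.32). Espn, which bundles actin in microvilli as Vil1 does, was at or under the floor at day 7 and at least 4.56-fold higher at day 13.

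In Matrigel the same lists, in that order, gave 4 and 1 of 27, 1 and 0 of 29, 6 and 2 of 28, 1 and 1 of 11, 2 and 2 of 17, and 2 and 0 of 12 higher and lower than in collagen, against 6.62% and 6.29% of all tested genes. Integrin alpha 2 (Itga2), part of a collagen receptor, was the adhesion gene with the largest difference (90.3 ± 1.58 against 28.5 ± 2.52 CPM, log2 fold change 1.66), and the myosin light chain kinase gene Mylk that of the myosin list (7.25 ± 1.05 against 2.03 ± 1.31 CPM, log2 fold change 1.81). Both genes were also higher in the KC collagen organoids of batch 2 than in those of batch 1 (Itga2 1.36, Mylk 1.85), and against the 8 KC collagen libraries the log2 fold change of Itga2 was 1.02 and Mylk was no longer called. In KPC they gave 4 and 6, 5 and 1, 4 and 4, 2 and 3, 2 and 5, and 2 and 0 higher and lower than in KC, against 9.58% and 10.4% of all tested genes. Caldesmon (Cald1), which restrains myosin on actin, was higher (217 ± 12 against 86.4 ± 23.2 CPM, log2 fold change 1.32). Fhl1, a LIM protein of muscle, had the largest fall (16.8 ± 3.53 against 239 ± 14.7 CPM, log2 fold change -3.82), and Myh14 was lower (74.1 ± 3.85 against 119.6 ± 8.04 CPM, log2 fold change -0.69).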

How the data were processed

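Bulk poly(A) RNA was tagged at the 3′ end with sample barcodes and unique molecular identifiers, and the authors mapped the reads with the Drop-seq pipeline to GRCm38 and deposited 1 table of counts of molecules per gene. These counts were used as deposited. Groups and replicates came from the labels. One model with 6 groups was fitted to all 23 libraries and tested by quasi-likelihood in edgeR (version 4.0.16, with limma 3.58.1 and R 4.3.3), after filterByExpr over the groups (11144 genes kept) and TMM scaling, with Benjamini-Hochberg adjustment over all genes kept and calls under 0.1. Levels are CPM over TMM-scaled totals, z scores used log2 CPM with a prior count of 2, and a floor of 3 counts per library set bounds. Depth of 1221451 to 2471058 counts per library limits precision for low genes such as Myh10. Standard errors and p-values rest on the spread between libraries, and the floor covers counting error only. Each standard error of a log2 fold change was derived from the test. It is the absolute log2 fold change over the square root of the quasi-likelihood F statistic.

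Per-library values are given for actins, myosin II genes and members with an absolute log2 fold change of at least 1 and an adjusted p under 0.1 in any comparison (Tpm1 was added after its values were seen). Other members are given by ranges and counts, and partner genes by the called extremes of each list. The members and lists were chosen with earlier results of these data known. Same-numbered replicates of different groups did not deviate together (correlations -0.12 to 0.19, median -0.01, 2 of 45 pairs over 0.1), so no block was used. Shared 3′ ends were searched among GENCODE M21 transcripts over the last 300 bases at an identity of at least 95%, and promoter windows came from a RefSeq table. The code was tested on simulated counts. Alternatives were DESeq2 1.42.0, other scalings and filters, an adjusted p of 0.05, a replicate block, smaller or larger sets of libraries, and leaving out each library. Some alleles, genes and 1 list of partner genes are not reported here.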

Additional observations from a re-analysis of the deposited data

Results flagged for a closer look

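The check for a library far from the others of its group covered 2D and day 13 collagen of batch 1. The other groups had too few libraries and were not checked. Of 80 values checked, 1 stood out, the level of Msn in 2D replicate 1. It was 147 CPM against 112 to 123 CPM in the other 5 2D libraries. The gap to the nearest library was 0.672 of the whole range, above Dixon's 95% critical value for 6 samples, and chance alone flags about 1 group in 20. All 6 2D libraries lay below the 3 day 7 libraries and above the 5 day 13 collagen libraries.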

How the results depend on the processing

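The number of members called stayed within 1.5 times the value reported in every alternative but 3. For KPC against KC it was 18 with the compared groups fitted alone and 16 against the 8 KC collagen libraries, in place of 10. For day 13 against 2D it was 15 with 2D replicates 4 to 6 alone and 30 with replicates 1 to 3 alone, in place of 24, and these 2 subsets were chosen after seeing the data. With library size scaling the median log2 fold change of all genes moved to 0.14 for day 7 against 2D, 0.20 for day 13 against 2D, 0.13 for KPC against KC and -0.18 for batch 2 against batch 1, and the splits of higher and lower members became 29 and 2, 16 and 7, 7 and 1, and 7 and 5. DESeq2 called 30 members at day 7 against 2D, 25 at day 13 against day 7, 23 at day 13 against 2D, 11 for the matrix, 11 for the lines and 19 for the batches.

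With the replicate number as a block the counts were 32, 30, 25, 12, 11 and 18 in the same order, and 37 for any difference among the 4 KC conditions, but the numbers do not pair the libraries. Leaving out 1 library at a time gave 27 to 31 members at day 7 against 2D, 23 to 26 at day 13 against day 7, 18 to 26 at day 13 against 2D, 9 to 11 for the matrix, 9 to 11 for the lines, 14 to 18 for the batches and 34 to 38 for any difference. Among single genes the direction turned for Dstn in KPC against KC (0.51) and for Actr2, an Arp2/3 subunit, in the same comparison (0.017), both against the 8 KC libraries, and for Arpc5 at day 7 against 2D (0.065) with 2D replicates 4 to 6 alone. In each the cause was not tested.

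The mean z score, which has no test, moved by more than its SD in these cases. With library size scaling it was -0.542 in 2D, -0.123 at day 13, 0.152 in Matrigel, -0.0928 in KC of batch 2 and 0.404 in KPC. With size factors of DESeq2 it was 0.146 in KC of batch 2. With z scores over batch 1 alone it was -0.178 in 2D, 0.944 at day 7, -0.161 in Matrigel, 0.351 in KC of batch 2 and 0.607 in KPC. As a median in place of a mean it was -0.483 in 2D, 0.956 at day 7, -0.424 at day 13, -0.232 in Matrigel and 0.0148 in KC of batch 2. Day 7 was the highest group in each of these settings.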
